A study of Rattus norvegicus with 9 samples.

Results

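The glutathione S-transferases (GST), UDP-glucuronosyltransferases (UGT) and sulfotransferases (SULT) of rat liver were followed across vehicle, CCl4 and CCl4+Rot livers. Members were chosen by name, as every gene symbol of the deposited table that begins with Gst and a class letter, with Ugt1, Ugt2 or Ugt3, or with Sult and a number. The rule found 48 of 16292 named genes, of which 20 were GST, 15 were UGT and 13 were SULT. The probe set (a group of short oligonucleotides for 1 transcript) with the highest mean signal stood for each gene, which gave 40 probe sets, 19 for GST, 8 for UGT and 13 for SULT. The 8 Ugt1a genes share 1 probe set and are called Ugt1a below, and Gsta2 and Gsta5 share another.

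Liver RNA came from 9 male Sprague–Dawley rats, with 1 array per rat and 3 rats per group. The rats weighed about 200 g when assigned to groups. The CCl4 rats received intraperitoneal CCl4 mixed 1:1 with olive oil, 0.2 ml per 100 g and 2 times a week for 8 weeks. The CCl4+Rot rats had the same CCl4 course with rottlerin, an activator of BK potassium channels, at 2.5 mg/kg from 2 weeks after the first CCl4 dose, and the contents of the vehicle are not given in the sources used here. There was no group with rottlerin alone, so rottlerin is read here only on top of CCl4. Ages are not given in the sources used here, and the 9 arrays are part of 18 rats assigned.

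Conjugation is the phase of drug and hormone metabolism in which a water-soluble group is joined to a fat-soluble compound or its reactive product. GST enzymes join glutathione, UGT enzymes join glucuronic acid taken from UDP-glucuronate, and SULT enzymes join sulfate taken from the donor PAPS. The hepatocyte carries most of this capacity in liver. CCl4, the toxin used here, is activated in hepatocytes by Cyp2e1 to radicals that injure the cell.

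The windows from 250 bases before to 50 bases after the start site (RefSeq, GRCr8) are shown for the GST gene that differed most from vehicle, Gsta3, and its alpha-class neighbour on the same chromosome, Gsta1, whose signal stayed within a narrow range. Capitals mark TGACNNNGC, the core of the antioxidant response element, the site known for binding of Nfe2l2 (Nrf2), and GTTAAT on either strand, part of the site of the liver factor HNF1. Gsta3 lies at chr9:31154739-31155038 on the + strand and Gsta1 at chr9:31216483-31216782 on the - strand.
Gsta3: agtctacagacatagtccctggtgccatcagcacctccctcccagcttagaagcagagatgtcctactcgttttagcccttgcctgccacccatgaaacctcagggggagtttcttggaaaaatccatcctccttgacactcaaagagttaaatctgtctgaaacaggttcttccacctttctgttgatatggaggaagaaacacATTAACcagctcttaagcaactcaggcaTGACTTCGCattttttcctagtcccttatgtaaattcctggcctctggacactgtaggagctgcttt
Gsta1: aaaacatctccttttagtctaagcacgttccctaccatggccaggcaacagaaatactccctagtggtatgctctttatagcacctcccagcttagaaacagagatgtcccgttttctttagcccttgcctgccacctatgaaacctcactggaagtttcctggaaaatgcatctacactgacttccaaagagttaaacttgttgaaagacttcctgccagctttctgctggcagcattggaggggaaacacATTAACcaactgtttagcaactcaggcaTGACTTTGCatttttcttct
In both windows the core began 28 bases after the first base of the GTTAAT match, which is on the reverse strand in each. The core of Gsta3 began 17 bases before the start site and that of Gsta1 at base 31 after it, and they differ by C7T, counted from the first base of the core, with the base of Gsta3 first. Promoter windows were found for 41 of the 48 members by gene number, and 7 of them (17.1%) held TGACNNNGC on either strand, against 12.2% of all 27457 windows. Those 7 were Gsta1, Gsta2, Gsta3, Gstm5, Gstm7, Gstp1 and Gstz1. A match describes the letters only. A window of the same kind is shown for the sulfotransferases where they are described.

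Signals are the deposited log2 values, on which 1 unit is a doubling. Differences were tested with limma over all 31042 probe sets in 1 fit of the 9 arrays, with Benjamini-Hochberg adjustment over all of them, and the thresholds were 0.05 for the adjusted p and 1.5 for the fold. A second fit, called the robust fit below, lets the spread follow the signal and lowers the weight of outlying genes. With 3 rats against 3, the smallest p of an exact two-sided permutation test is 0.1. CCl4 replicate 3 stood apart, with 12714 probe sets called present (detected above background) against 15550 to 16849 on the other arrays, and with a median log2 signal of 7.81 against 6.79 to 7.01, so differences that involve the CCl4 livers are also given without it for the genes described singly. Hepatocyte markers were called present on all 9 arrays for 8 of 8 measured genes, with a mean log2 signal of 14.64 to 14.78 in vehicle, 14.02 to 14.79 in CCl4 and 14.66 to 14.74 in CCl4+Rot livers, the lowest value being that of CCl4 replicate 3. The 8 stellate cell and myofibroblast markers averaged 8.77 to 9.05, 9.66 to 10.22 and 10.20 to 10.30, and the 5 cholangiocyte markers averaged 6.12 to 6.40, 7.17 to 7.88 and 6.56 to 7.12, in the same order of groups. Each CCl4 liver was above each vehicle liver in both lists, but without Spp1 the mean of the other 4 cholangiocyte markers overlapped, at 6.04 to 6.44 in vehicle livers and from 5.93 up in CCl4 livers. Their part in the results below was not tested. In bulk liver, fewer cells of a type and less RNA per cell cannot be told apart.

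Most conjugation genes were detected in every liver. Of the 40 probe sets, 28 (70%) were called present on all 9 arrays, against 49.7% of the 15106 probe sets that represent all named genes. The share was 15 of 19 for GST, 6 of 8 for UGT and 7 of 13 for SULT. The 4 called present on no array were Gstm3, Gstm6l, Sult1d1 and Sult2b1, of which Gstm6l is named only because the count is small. No fold is given for these 4. The map of differences from vehicle shows every member on every array.

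**Figure D1:**
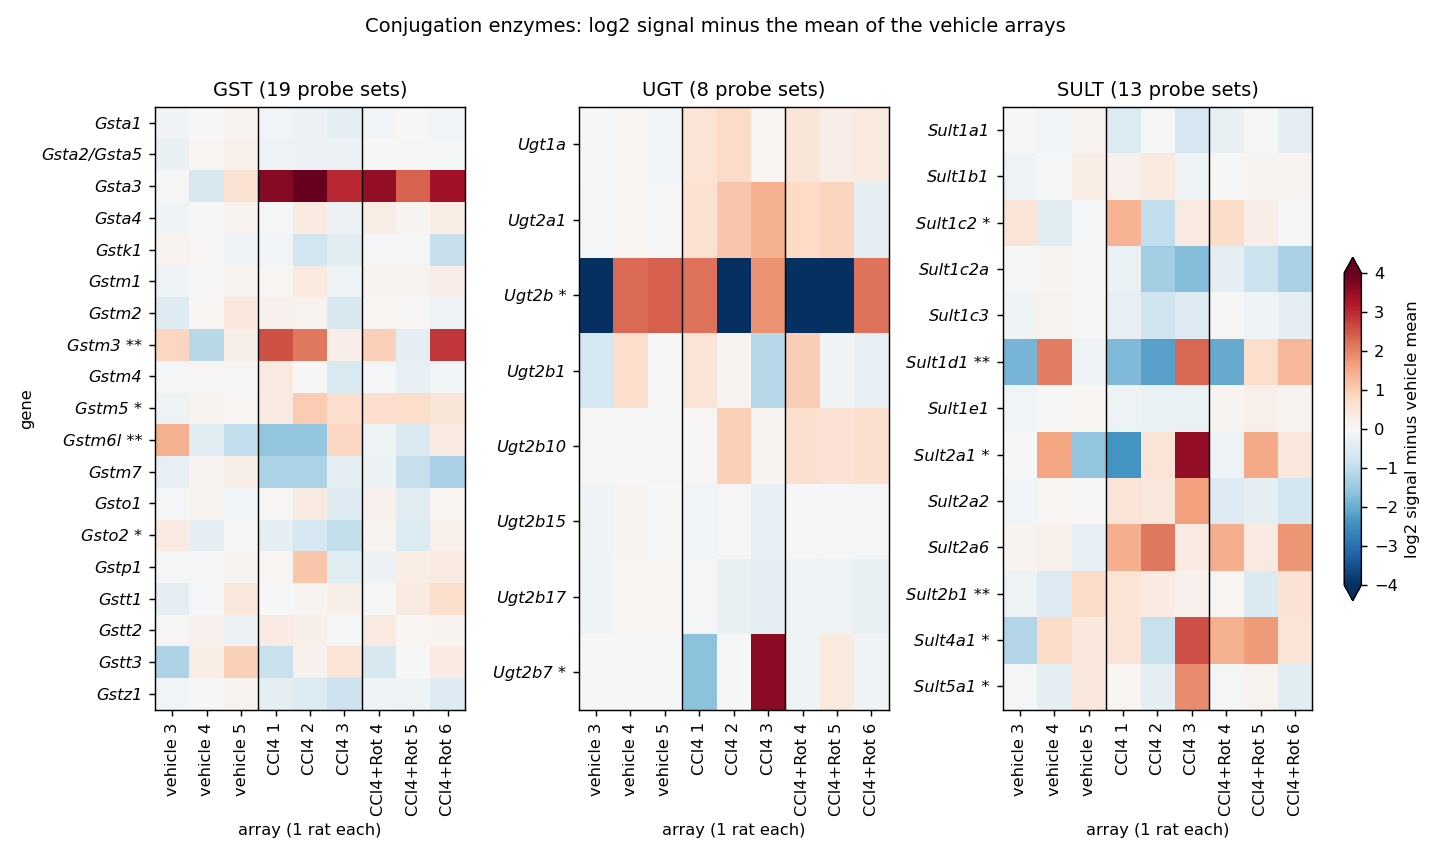
Log2 signal of each member minus the mean of the 3 vehicle arrays (colour, red higher, blue lower, saturating at 4 units), with 1 column per array and 1 row per probe set in the GST, UGT and SULT families. An asterisk marks genes called present on 1 to 8 arrays and 2 asterisks those called present on none. Gsta3 is red in all 6 CCl4-treated livers, and Ugt2b is dark blue in 4 livers spread over the 3 groups.

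Between CCl4 and vehicle livers, the groups did not overlap for 12 of the 40 genes. The CCl4 livers were higher for 6 of them (Gsta3, Gstm5, Ugt2a1, Ugt2b10, Sult2a6 and Sult2a2), against 12.4% of all genes, and lower for 6 (Gstm7, Gstz1, Sult1c3, Sult1c2a, Sult1e1 and Gsto2, the last named after its values were seen), against 8.53% of all genes. Of the 28 members called present on all 9 arrays, 5 were higher and 5 lower with no overlap, beside 898 and 1048 of 7504 such genes. None of the 40 passed limma, as for all genes (0%). Of the 40, 9 had an unadjusted limma p below 0.05 (13.5% of all genes) and 1, Gsta3, passed the robust fit (1.63% of all genes). By direction, 20 of the 40 were higher and 20 lower, a split of 50% higher that became 55% after quantile normalization and 30% after centring each array on its median. After that centring the groups did not overlap for 3 higher and 7 lower, and no share of all genes is given for it. Without CCl4 replicate 3 they did not overlap for 9 higher and 7 lower, beside 18.1% and 15.0% of all genes. Some margins among the 12 genes were narrow as deposited. The nearest CCl4 and vehicle livers were both at 12.23 for Ugt2b10, at 6.45 and 6.46 for Gsto2, and at 9.61 and 9.65 for Gstm7. These scalings moved the median of all genes from 0.13 as deposited to 0.01 and -0.23, and without CCl4 replicate 3 it was 0.03.

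Gsta3 was the member that differed most from vehicle in both treated groups. It encodes an alpha-class subunit, and RefSeq gives Yc2 among its synonyms, a subunit known for conjugating the epoxide of aflatoxin. Its log2 signal was 6.51, 5.85 and 7.10 in vehicle livers, 10.11, 10.87 and 9.50 in CCl4 livers and 10.01, 8.84 and 9.85 in CCl4+Rot livers, and it was called present on all 9 arrays. All 6 CCl4-treated livers lay above all 3 vehicle livers, while the CCl4 and CCl4+Rot livers overlapped. The group means were 6.49 ± 0.62 (SD, n = 3), 10.16 ± 0.69 and 9.57 ± 0.64.

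The log2 difference of Gsta3 between CCl4 and vehicle livers was 3.68 ± 0.49 (SE), or 12.8-fold (limma adjusted p = 0.156, robust fit 0.00343). Between CCl4+Rot and vehicle livers it was 3.08 ± 0.49, or 8.46-fold (limma adjusted p = 0.167, robust fit 0.00612). With rottlerin on top of CCl4 the log2 signal was lower by 1.51-fold, at -0.60 ± 0.49 (limma adjusted p = 0.798, robust fit 0.724), which is within the spread between rats. Gsta3 thus missed the threshold of limma over all probe sets and passed it in the robust fit. It passed the robust fit with each of the 9 arrays left out in turn, with adjusted p of 0.00241 to 0.0204 against vehicle for CCl4 and 0.00147 to 0.0489 for CCl4+Rot. Without CCl4 replicate 3 the difference between CCl4 and vehicle livers was 4.01. When the test was kept to probe sets detected on 3 or more arrays, limma itself gave adjusted p of 0.0352 and 0.044.

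The other alpha-class genes kept a narrow range. Gsta1 had log2 signals of 14.39, 14.49 and 14.67 in vehicle, 14.41, 14.29 and 14.14 in CCl4 and 14.43, 14.50 and 14.42 in CCl4+Rot livers. The probe set of Gsta2 and Gsta5 read 14.14, 14.51 and 14.62, then 14.23, 14.20 and 14.20, then 14.40, 14.46 and 14.35. For both probe sets each CCl4+Rot liver was above each CCl4 liver, by 0.17 and 0.20 in the log2 means (limma adjusted p = 0.815 and 0.802), by 0.02 and 0.07 after quantile normalization, and by 0.10 and 0.20 without CCl4 replicate 3. Gsta4, which handles the lipid aldehyde hydroxynonenal, differed by 0.02 ± 0.20 (SE) between CCl4 and vehicle livers and by 0.21 ± 0.20 between CCl4+Rot and CCl4 livers on the log2 scale (limma adjusted p = 0.979 and 0.817), and the first was 0.14 without CCl4 replicate 3. Probe sets of close relatives can share signal, and the build behind the table is not given in the sources used here.

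**Figure D2:**
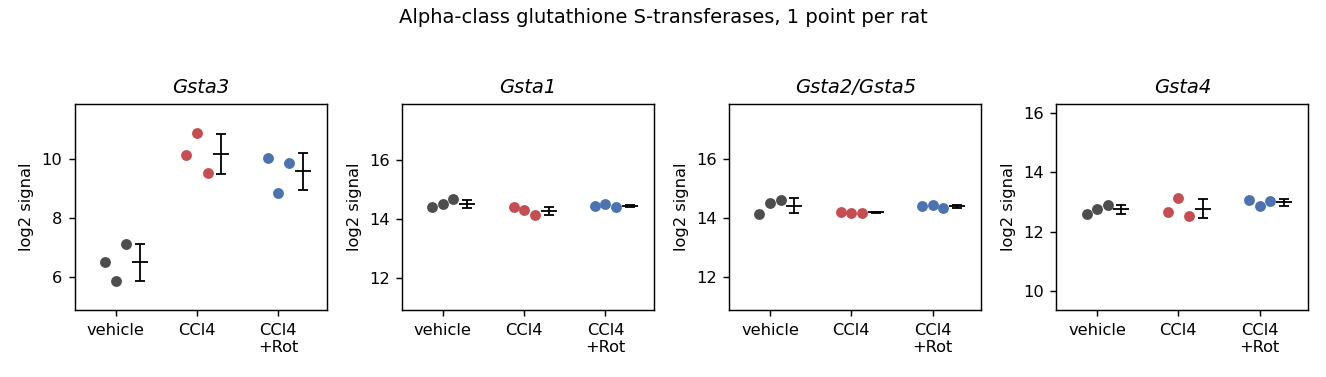
Log2 signal of the alpha-class GST genes, with 1 point per rat and the group mean with its SD (bar) beside the points. Every panel spans 7 log2 units, centred on the gene's own range, so that distances can be compared between panels. Gsta3 separates vehicle from both CCl4-treated groups, with means of 6.49, 10.16 and 9.57, and the other panels stay within 1 unit.

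Among the mu-class genes, Gstm5 was higher and Gstm7 lower in CCl4 livers. The Gstm5 probe set, which also names a second locus, read 7.24, 7.59 and 7.54 in vehicle, 7.79, 8.48 and 8.12 in CCl4 and 8.11, 8.16 and 7.94 in CCl4+Rot livers. Each treated liver was above each vehicle liver, and the log2 differences were 0.68 ± 0.22 (SE) for CCl4 (limma adjusted p = 0.3) and 0.62 ± 0.22 for CCl4+Rot (limma adjusted p = 0.479). Gstm7 read 9.65, 10.08 and 10.24, then 8.71, 8.74 and 9.61, then 9.77, 9.08 and 8.68. Its CCl4 livers were below its vehicle livers, while the CCl4+Rot livers overlapped both groups, with differences from vehicle of -0.97 ± 0.37 (limma adjusted p = 0.358) and -0.81 ± 0.37 (limma adjusted p = 0.627). The CCl4 differences were 0.68 for Gstm5 and -1.27 for Gstm7 without CCl4 replicate 3. Gstm1, Gstm2 and Gstm4 differed from vehicle by -0.10 to 0.11 in CCl4 livers and by -0.16 to 0.19 in CCl4+Rot livers on the log2 scale.

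Gstz1, the isomerase of maleylacetoacetate in tyrosine breakdown, was lower in both treated groups. It read 13.85, 13.94 and 14.09 in vehicle, 13.60, 13.40 and 13.12 in CCl4 and 13.83, 13.79 and 13.45 in CCl4+Rot livers. Neither treated group overlapped vehicle, although the highest CCl4+Rot liver came within 0.02 of the lowest vehicle liver. The log2 differences were -0.58 ± 0.19 (SE) for CCl4 (limma adjusted p = 0.312) and -0.27 ± 0.19 for CCl4+Rot (limma adjusted p = 0.828), and the first was -0.46 without CCl4 replicate 3. Gstp1, the pi-class enzyme known as a marker of altered hepatocyte foci in rats, read 10.48, 10.48 and 10.67, then 10.63, 11.64 and 10.07, then 10.30, 10.84 and 10.92, with both treated groups overlapping vehicle. Its log2 difference between CCl4 and vehicle livers was 0.24 as deposited, 0.59 without CCl4 replicate 3, -0.20 without CCl4 replicate 2, whose signal was the highest, and -0.12 after median centring. The kappa, omega and theta genes Gstk1, Gsto1, Gstt1 and Gstt2 differed from vehicle by between -0.44 and 0.18 in CCl4 livers and between -0.34 and 0.35 in CCl4+Rot livers. A second, dimmer probe set of Gstt2, called present on 8 arrays, differed from this. It read 8.41, 8.06 and 8.58 in vehicle, 8.31, 8.57 and 8.15 in CCl4 and 7.97, 7.86 and 7.15 in CCl4+Rot livers. Each CCl4+Rot liver was below every other liver there, by -0.69 in the log2 mean from vehicle and -0.69 from CCl4 livers. The brighter Gstt2 probe set gave 0.18 and 0.00 for these. Gstt3, named only to complete the family, lay between 10.70 and 12.89 with overlapping groups.

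Gsto2 was called present on 1 vehicle and 1 CCl4+Rot array and on no CCl4 array. Its signal in CCl4 livers was 1.59-fold lower than in vehicle livers (limma adjusted p = 0.408) and 1.51-fold lower than in CCl4+Rot livers (limma adjusted p = 0.757), the second with overlapping groups. The lowest signal called present was 3.14, 3.53 and 2.31 on the CCl4 arrays, below every Gsto2 value. These folds are therefore plain differences of means, not minimum folds, and rest on signals not called present in CCl4 livers.

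The hydroxysteroid sulfotransferases Sult2a6 and Sult2a2, which sulfate bile acids and steroids, were both higher in CCl4 livers than in vehicle livers and differed in the CCl4+Rot livers. Their windows from RefSeq (GRCr8) are shown because these neighbours in function separated the groups differently, and lie at chr1:84097759-84098058 for Sult2a6 and chr1:85104483-85104782 for Sult2a2, both on the - strand. Capitals mark TATAAA and GTTAAT on either strand.
Sult2a6: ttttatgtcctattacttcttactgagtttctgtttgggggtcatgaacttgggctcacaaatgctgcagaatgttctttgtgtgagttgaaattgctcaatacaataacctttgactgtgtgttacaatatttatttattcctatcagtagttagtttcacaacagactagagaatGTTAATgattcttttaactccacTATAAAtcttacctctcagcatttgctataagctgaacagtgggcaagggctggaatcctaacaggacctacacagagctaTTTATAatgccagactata
Sult2a2: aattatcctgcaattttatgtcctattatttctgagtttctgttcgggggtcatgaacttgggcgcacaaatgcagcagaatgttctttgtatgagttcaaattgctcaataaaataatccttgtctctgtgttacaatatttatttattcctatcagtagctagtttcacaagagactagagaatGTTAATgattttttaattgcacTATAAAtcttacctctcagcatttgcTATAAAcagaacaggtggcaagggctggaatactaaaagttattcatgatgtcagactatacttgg
TATAAA was found in 14.3% of all windows and GTTAAT in 7.37%. Among the 41 matched members they were in 11 (26.8%) and 9 (22%), and Sult2a6, Sult2a2 and Ugt2b10 held both, as did Gsta1.

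Sult2a6 read 12.30, 12.39 and 11.85 in vehicle, 13.65, 14.30 and 12.49 in CCl4 and 13.62, 12.53 and 13.95 in CCl4+Rot livers. Each treated liver was above each vehicle liver, with 1 liver of each treated group close to the vehicle range. The log2 differences from vehicle were 1.30 ± 0.53 (SE), or 2.47-fold, for CCl4 (limma adjusted p = 0.38, robust fit 0.29) and 1.19 ± 0.53 for CCl4+Rot (limma adjusted p = 0.62, robust fit 0.486). Without CCl4 replicate 3, whose Sult2a6 signal was the lowest of the CCl4 group, the first of them was 1.79.

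Sult2a2 read 6.42, 6.59 and 6.55 in vehicle, 7.04, 6.97 and 8.17 in CCl4 and 6.01, 6.15 and 5.78 in CCl4+Rot livers, and was called present on all 9 arrays. The 3 groups did not overlap with each other, with CCl4 highest and CCl4+Rot lowest. CCl4+Rot livers were 2.66-fold below CCl4 livers, at -1.41 ± 0.32 (SE) on the log2 scale (limma adjusted p = 0.635, robust fit 0.482). CCl4 livers were 0.87 ± 0.32 above vehicle (limma adjusted p = 0.354). The highest value was that of CCl4 replicate 3, and without it these differences were -1.03 and 0.48.

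The Sult1c genes Sult1c3 and Sult1c2a were lower in CCl4 livers. Sult1c3 read 14.04, 14.33 and 14.17 in vehicle, 13.86, 13.38 and 13.67 in CCl4 and 14.16, 14.00 and 13.79 in CCl4+Rot livers. Sult1c2a read 11.99, 12.19 and 12.05, then 11.81, 10.68 and 10.35, then 11.69, 11.21 and 10.77. For both genes every CCl4 liver was below every vehicle liver, and for Sult1c2a every CCl4+Rot liver was as well. The log2 differences between CCl4 and vehicle livers were -0.55 ± 0.19 (SE) for Sult1c3 (limma adjusted p = 0.336) and -1.13 ± 0.40, or 2.19-fold lower, for Sult1c2a (limma adjusted p = 0.336). They were -0.57 and -0.83 without CCl4 replicate 3.

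Sult1e1, the estrogen sulfotransferase, had the smallest SD of the family in CCl4 and CCl4+Rot livers, 0.03 and 0.05. It read 14.69, 14.81 and 14.87 in vehicle, 14.57, 14.53 and 14.53 in CCl4 and 14.89, 14.99 and 14.91 in CCl4+Rot livers. The groups did not overlap with each other, and CCl4+Rot was highest and CCl4 lowest. CCl4+Rot livers were 1.31-fold above CCl4 livers, at 0.39 ± 0.14 (SE) on the log2 scale (limma adjusted p = 0.734), and CCl4 livers were -0.25 ± 0.14 from vehicle (limma adjusted p = 0.501). These differences were 0.23 and -0.05 after quantile normalization, and 0.38 and -0.24 without CCl4 replicate 3. Sult1a1, which sulfates phenols, was -0.43 ± 0.20 from vehicle in CCl4 livers (limma adjusted p = 0.437) with overlapping groups, and Sult1b1, known for thyroid hormones among its substrates, differed from vehicle by 0.13 ± 0.21 (limma adjusted p = 0.815). These were -0.32 and 0.29 without CCl4 replicate 3.

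The remaining members of the family were not detected on every array. Sult1c2, Sult2a1, Sult4a1 and Sult5a1 were called present on 8, 3, 1 and 1 arrays, and their groups overlapped in each comparison. Sult5a1 is named only to complete the count, and its highest signal, 10.35, was in CCl4 replicate 3. The probe set of Sult1c2 names a second locus as well.

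**Figure D3:**
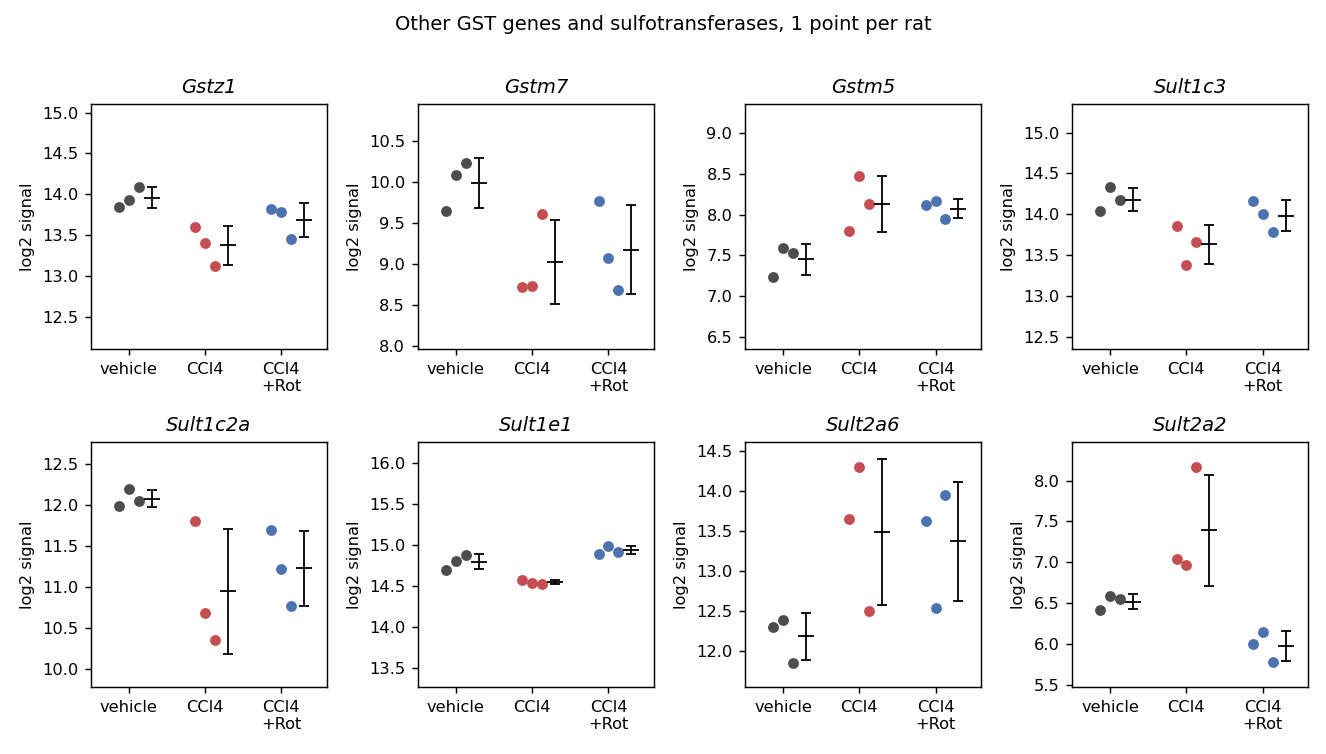
Log2 signal of 3 GST and 5 SULT genes, with 1 point per rat and the group mean with its SD (bar) beside the points. Each panel has its own scale of at least 3 log2 units. Sult2a2 places the 3 groups apart, with means of 6.52, 7.39 and 5.98, and Sult2a6 places both treated groups above vehicle.

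The UGT family held Ugt2b, with an SD between rats of 4.02 to 4.66 in the 3 groups. Ugt2b read 7.69, 14.59 and 14.71 in vehicle, 14.51, 6.26 and 14.13 in CCl4 and 7.22, 7.04 and 14.49 in CCl4+Rot livers, so that the 9 livers fell at either about 6 to 8 or above 14. Low values were found in vehicle replicate 3, CCl4 replicate 2 and CCl4+Rot replicates 4 and 5, in other words in every group. The second probe set of Ugt2b was low in the same 4 livers, at 4.38, 1.31, 2.96 and 3.69, and read 11.55, 11.70, 11.09, 10.82 and 10.87 in the others. No group mean is given for Ugt2b, since it would rest on how many low livers a group holds, and the limma adjusted p were 0.941, 0.883 and 0.922 in the 3 comparisons.

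The neighbours of Ugt2b in the UGT2B cluster, which glucuronidates steroids and bile acids, showed no such gap. Ugt2b15, which RefSeq now names Ugt2b35, lay between 13.85 and 14.31 on all 9 arrays. Ugt2b17, now Ugt2b15 in RefSeq, lay between 13.41 and 13.85, and Ugt2b1 between 10.72 and 12.85. The table places all of them on chromosome 14. Ugt2b7, named only to complete the family, was called present on 5 arrays and lay between 3.53 and 8.80, with overlapping groups. Ugt2b10 read 12.23, 12.17 and 12.12 in vehicle, 12.23, 13.11 and 12.27 in CCl4 and 12.81, 12.77 and 12.80 in CCl4+Rot livers, with each CCl4+Rot liver above each vehicle liver, by 0.62 ± 0.25 (SE) in the mean log2 signal (limma adjusted p = 0.562, robust fit 0.213). Its difference between CCl4 and vehicle livers was 0.37 as deposited, 0.50 without CCl4 replicate 3 and 0.01 after median centring.

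Ugt1a, which covers the bilirubin enzyme Ugt1a1 and its relatives with a shared 3′ end, was higher in treated livers. Its probe set read 13.53, 13.61 and 13.42 in vehicle, 14.07, 14.29 and 13.60 in CCl4 and 14.00, 13.78 and 13.90 in CCl4+Rot livers. CCl4 replicate 3 overlapped the vehicle range and the other 5 treated livers lay above it. The log2 differences from vehicle were 0.47 ± 0.21 (SE) for CCl4 (limma adjusted p = 0.414) and 0.37 ± 0.21 for CCl4+Rot (limma adjusted p = 0.737), and the other Ugt1a probe set gave 0.46 and 0.40. The first value was 0.66 without CCl4 replicate 3, where Ugt1a passed the robust fit, 0.32 without CCl4 replicate 2 and 0.11 after median centring. The array cannot say which of the 8 Ugt1a transcripts carried the signal.

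Ugt2a1, the UGT known from olfactory tissue, read 7.98, 8.12 and 8.01 in vehicle, 8.64, 9.14 and 9.45 in CCl4 and 8.85, 8.92 and 7.68 in CCl4+Rot livers. Each CCl4 liver was above each vehicle liver, and 1 CCl4+Rot liver was below all of them. The log2 difference between CCl4 and vehicle livers was 1.04 ± 0.37 (SE), or 2.05-fold (limma adjusted p = 0.335, robust fit 0.127), and 0.85 without CCl4 replicate 3.

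**Figure D4:**
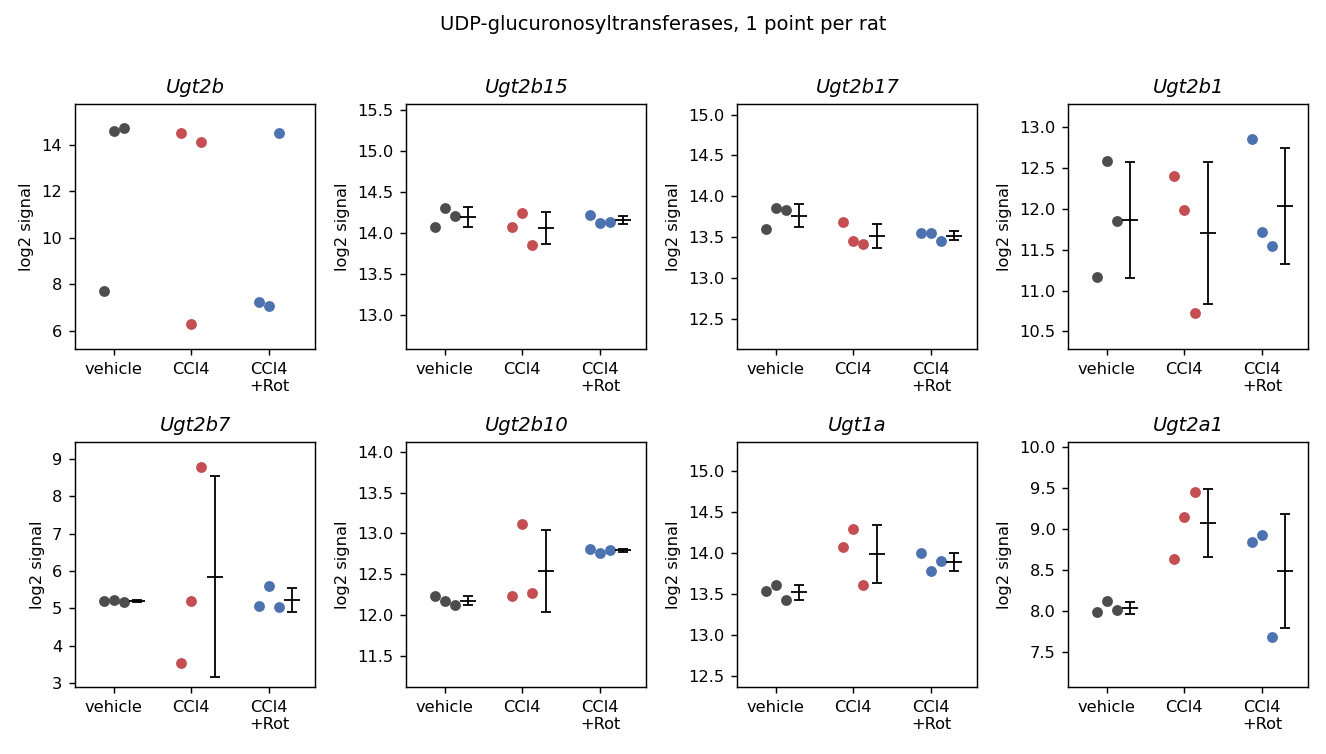
Log2 signal of the 8 UGT probe sets, with 1 point per rat and the group mean with its SD (bar) beside the points, except for Ugt2b, where no mean is drawn. Each panel has its own scale of at least 3 log2 units. Ugt2b takes either low or high values in every group, while Ugt2b15 and Ugt2b17 stay within 1 unit over all 9 livers.

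Few members separated CCl4+Rot from CCl4 livers, and few of all genes did. The groups did not overlap for 4 of the 40 genes, with CCl4+Rot higher for Gsta1, Gsta2/Gsta5 and Sult1e1 (5.57% of all genes) and lower for Sult2a2 (5.59% of all genes). None of the 40 passed limma (0% of all genes) or the robust fit (0.00662% of all genes), and 2, Sult2a2 and Sult1e1, had an unadjusted limma p below 0.05 (5.49% of all genes). All 4 were among the 28 members called present on all 9 arrays, beside 604 higher and 296 lower of 7504 such genes. The count of 4 was 10 without CCl4 replicate 3, 9 without CCl4 replicate 1 or 2 and 8 without CCl4+Rot replicate 6. It was 2 after quantile normalization, both of them lower. Leaving an array out can only keep or raise such a count, since groups already apart stay apart. The shares of all genes moved too, to 12.3% higher and 10.8% lower without CCl4 replicate 3, 10.2% and 16.5% without CCl4 replicate 1, 12.3% and 11.6% without CCl4 replicate 2, and 8.90% and 9.57% without CCl4+Rot replicate 6. No share of all genes is given after quantile normalization. The split of 60% higher became 52.5% after quantile normalization and 80% after median centring. The median of all genes moved with these scalings from -0.05 to 0.00 and 0.20.

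Against vehicle, the CCl4+Rot livers did not overlap for 10 of the 40 genes. They were higher for Gsta3, Gstm5, Sult1e1, Sult2a6, Ugt1a and Ugt2b10 (15.3% of all genes) and lower for Gstz1, Sult1c2a, Sult2a2 and Ugt2b17 (9.52% of all genes). Of the 28 members called present on all 9 arrays, 5 were higher and 4 lower with no overlap, beside 1291 and 996 of 7504 such genes. None of the 40 passed limma (0.0199% of all genes). Of the 40, 3 had an unadjusted limma p below 0.05 (9.71% of all genes), and Gsta3 passed the robust fit (1.2% of all genes). After median centring, which moved the median of all genes from 0.03 to -0.08, the counts were 3 higher and 9 lower. No share of all genes is given for that scaling. The count of 10 became 17 without vehicle replicate 3, where the shares of all genes were 21.6% higher and 15.7% lower. Both contrasts with vehicle use the same 3 vehicle livers, so they are not independent of each other. The 3 CCl4 livers likewise enter CCl4 against vehicle and CCl4+Rot against CCl4, with opposite sign. Low CCl4 values alone would make a gene lower than vehicle and higher with rottlerin, so those contrasts are not independent either. The share of members higher was 52.5%, and 42.5% after median centring.

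The family medians lay near 0 and several turned sign with the setting. Between CCl4 and vehicle livers the median log2 difference was -0.07 for GST, 0.12 for UGT and 0.25 for SULT, beside 0.13 for all genes. Over the members called present on all 9 arrays it was -0.07, 0.12 and -0.25, so the SULT value has the other sign there. Without CCl4 replicate 3 the medians of all members were 0.14, 0.15 and -0.19, turned in sign for GST and SULT. After quantile normalization the same medians were 0.07, 0.24 and -0.05, so the sign turned for GST and SULT, and after median centring all 3 were below 0, at -0.42, -0.24 and -0.10. Between CCl4+Rot and CCl4 livers they were 0.08, -0.05 and 0.06, beside -0.05, and were 0.09, -0.10 and 0.07 without CCl4 replicate 3. The UGT value turned sign after median centring, at 0.20, and over members called present on all 9 arrays, at 0.05. Between CCl4+Rot and vehicle livers they were -0.03, 0.10 and 0.02, beside 0.03 for all genes, with the sign turned for GST and SULT after quantile normalization, at 0.04 and -0.04, and for UGT and SULT after median centring, at -0.01 and -0.09, and for SULT over members called present on all 9 arrays, at -0.20. Without the dimmest probe sets (30%) the UGT median between CCl4 and vehicle livers was -0.14. Members of a family are not replicates, undetected ones are included, and these medians carry no test.

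**Figure D5:**
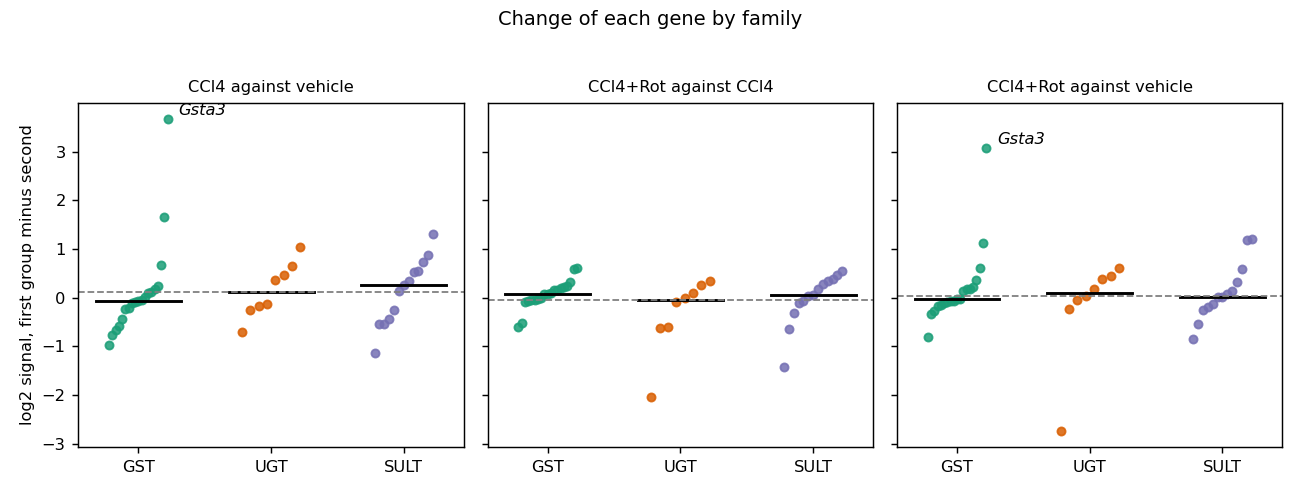
Log2 difference of each of the 40 members (points) by family in the 3 comparisons, first group minus second, with the family median (black line) and the median of all 15106 genes (dashed line). The family medians lie between -0.07 and 0.25. Gsta3 stands at 3.68 and 3.08 against vehicle, and the low UGT point in the comparisons with CCl4+Rot is Ugt2b.

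Within the 6 CCl4-treated livers, the members that followed Gsta3 most closely were Gsto1 (Pearson r = 0.88, Spearman rho = 0.77), Sult2a6 (0.88 and 0.77), Ugt1a (0.85 and 0.94), Sult1b1 (0.61 and 0.60) and Gstt2 (0.61 and 0.71), of 27 members called present on all 9 arrays. Without the 2 livers farthest from the Gsta3 median, Pearson r was 0.89, 0.80, 1.00, 0.87 and 0.94. Other members were as high over those 4 livers, such as Gstm2 at 0.998, Gstm4 at 0.96 and Gsta1 at 0.90. Gsta1 was at -0.25 over the 6, and others were negative over the 4, such as Gstt3 at -0.90. The values over 4 livers therefore do not set the 5 members apart. The vehicle livers stand apart for Gsta3 and were left out. With them, over 9 livers, Ugt1a (r = 0.83), Sult2a6 (0.82), Ugt2b10 (0.70), Ugt2a1 (0.56) and Gstm1 (0.52) led and Gsto1 was at 0.13. Over the 6, the points share CCl4 replicate 3, in which all 5 had their lowest values among the CCl4 livers. These values are a description over 6 rats.

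Genes that supply and surround conjugation were counted from a list of 57, of which 54 were measured. Between CCl4 and vehicle livers 19 were higher and 35 lower, with no overlap for 3 higher and 14 lower (5.56% and 25.9% of the 54, beside 12.4% and 8.53% of all genes). Between CCl4+Rot and CCl4 livers 31 were higher and 23 lower, with no overlap for 6 higher (11.1%) and none lower, beside 5.57% and 5.59% of all genes. Without CCl4 replicate 3 these no-overlap counts were 8 and 16 (18.1% and 15.0% of all genes), then 10 and 5 (12.3% and 10.8% of all genes). None passed limma in these comparisons, where 16 (29.6%) and 4 (7.41%) had an unadjusted limma p below 0.05, beside 13.5% and 5.49% of all genes. Of the 54, 1 (1.85%) passed the robust fit between CCl4 and vehicle livers, beside 1.63% of all genes. Between CCl4+Rot and vehicle livers 23 were higher and 31 lower, with no overlap for 3 and 13 (15.3% and 9.52% of all genes), and 1, Inmt, passed the robust fit (1.2% of all genes). Of the 54, 42 were called present on all 9 arrays, while all genes include undetected ones. Of 7504 genes called present on all 9 arrays, 898 were higher and 1048 lower with no overlap between CCl4 and vehicle livers. Between CCl4+Rot and CCl4 livers these were 604 and 296, and between CCl4+Rot and vehicle livers 1291 and 996. The first 2 comparisons share the 3 CCl4 livers, so their counts are not independent. The pathway gene that passed the robust fit between CCl4 and vehicle livers was Ugp2, which makes the UDP-glucose from which UDP-glucuronate is formed. It read 14.05, 14.64 and 14.07 in vehicle, 13.24, 13.17 and 13.33 in CCl4 and 13.86, 13.63 and 13.75 in CCl4+Rot livers.

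All 3 groups of Ugp2 were apart, with CCl4 lowest. The log2 difference between CCl4 and vehicle livers was -1.01 (limma adjusted p = 0.202, robust fit 0.0121), and the robust fit gave 0.0599 without vehicle replicate 4 and 0.0236 without CCl4 replicate 3. CCl4+Rot livers were 0.50 above CCl4 livers (limma adjusted p = 0.749, robust fit 0.545). The synthases of PAPS lay on opposite sides of vehicle in CCl4 livers, neither with overlap. Papss1 was 1.13 above vehicle (limma adjusted p = 0.285, robust fit 0.0755), and 0.75 without CCl4 replicate 3. Papss2 read 12.67, 12.48 and 12.38 in vehicle, 12.10, 11.81 and 11.69 in CCl4 and 11.96, 12.13 and 11.64 in CCl4+Rot livers, a difference between CCl4 and vehicle of -0.65 (limma adjusted p = 0.29, robust fit 0.0688), or -0.56 without CCl4 replicate 3.

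Among 14 other conjugating enzymes, 12 were lower in CCl4 than in vehicle livers, with no overlap for 5 (35.7%, beside 8.53% of all genes). These 5 include Nat2, called present on no array. Of the 7504 genes called present on all 9 arrays, 1048 were lower with no overlap. Inmt, a methyltransferase of indoles, read 9.42, 11.50 and 9.35 in vehicle, 7.74, 6.57 and 8.61 in CCl4 and 6.75, 6.28 and 6.33 in CCl4+Rot livers, below vehicle in every treated liver. It was called present on no CCl4+Rot array, and its signal there was 12.4-fold lower than in vehicle livers (limma adjusted p = 0.192, robust fit 0.0262). This passed no more without CCl4+Rot replicate 4, 5 or 6, with robust adjusted p of 0.101, 0.123 and 0.186. Glyat, which joins glycine to acyl groups, was -0.89 from vehicle in CCl4 livers (limma adjusted p = 0.29), and -0.75 without CCl4 replicate 3. Its CCl4 livers did not overlap vehicle.

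Of 15 regulators, 13 were lower in CCl4 than in vehicle livers, and 9 were higher in CCl4+Rot than in CCl4 livers. The CCl4 livers were lower with no overlap for 3 (20%), beside 8.53% of all genes and 1048 of the 7504 called present on all 9 arrays. Without CCl4 replicate 3, 10 of 15 were lower than vehicle, and 4 had no overlap. There, 15.0% of all genes were lower with no overlap. Cebpa, a hepatocyte transcription factor, read 12.37, 12.08 and 12.28 in vehicle, 11.45, 11.26 and 11.92 in CCl4 and 12.62, 12.47 and 12.49 in CCl4+Rot livers. Its CCl4 livers were below both other groups, by 0.98 on the log2 scale against CCl4+Rot (limma adjusted p = 0.608, robust fit 0.098) and by 0.70 against vehicle (limma adjusted p = 0.28, robust fit 0.0601). Without CCl4 replicate 3, Cebpa passed the robust fit in both comparisons, with differences of 1.17 between CCl4+Rot and CCl4 livers (adjusted p = 0.0154) and -0.89 between CCl4 and vehicle livers (adjusted p = 0.0162). Nr3c1, the glucocorticoid receptor, was 0.62 higher with rottlerin than with CCl4 alone (limma adjusted p = 0.724, robust fit 0.462), and 0.64 without CCl4 replicate 3. Nfe2l2, whose element was searched for above, read 11.93, 11.87 and 11.33 in vehicle, 11.54, 11.99 and 12.09 in CCl4 and 11.86, 11.94 and 12.30 in CCl4+Rot livers, which overlap throughout. The difference between CCl4 and vehicle was 0.16 (limma adjusted p = 0.805), or 0.05 without CCl4 replicate 3.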

How the data were processed

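In the table that the authors deposited, log2 signals and detection calls are given for 31099 probe sets of an Affymetrix rat expression array in 9 livers. The submitters' processing notes name MAS5 and the affy package, with no version. The mean of the antilogs, trimmed by 2% at both ends, was 500 throughout, so the arrays had been scaled to a common mean before deposit. The log2 signals were used as deposited, without 57 control probe sets. The number of arrays limits the precision. The annotation names genes for 21413 probe sets.

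Groups came from the labels. All 9 arrays entered 1 fit in limma 3.58.1 (R 4.3.3), with 3 group means, no covariate and Benjamini-Hochberg adjustment over 31042 probe sets, and statmod 1.5.0 served the robust fit. The 1.5-fold threshold is that of the methods, which name no build. The fits were tested on simulated data. A gene called present in only 1 group was given a bound, the dim group being set no lower than the least signal among detected probe sets. For Gsto2 and Inmt that least signal lay below their own values, so their folds were unchanged by it. Group overlap was counted over the 40 probe sets, beside 15106 that represent all named genes.

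Genes were named by a fixed list of well-known members, by any call, and by the 3 smallest limma p in each family and comparison among genes detected on 3 or more arrays. Pathway genes named with values were chosen after their values were seen. Marker lists covered hepatocytes, cholangiocytes, stellate cells, macrophages, endothelium, T and B cells and exocrine pancreas. The last 4 had mean log2 ranges in vehicle, CCl4 and CCl4+Rot livers of 10.34 to 10.79, 10.68 to 10.84 and 10.86 to 11.09 for macrophages, 9.45 to 9.53, 9.34 to 9.57 and 9.75 to 9.89 for endothelium, 5.62 to 6.48, 5.90 to 7.34 and 5.95 to 6.49 for T and B cells, and 4.83 to 5.60, 4.22 to 6.16 and 4.21 to 5.13 for exocrine pancreas, of which 2 of 5 genes were called present on any array. Lists of transport genes and of enzymes that remove conjugates had 5 and 7 measured members, of which 0 passed the robust fit in any comparison. The members and lists were chosen with earlier results of these data known. The rule for genes like Gsta3 named all 9 arrays, and 6 were used because the vehicle arrays stand apart.

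Alternatives were quantile normalization, median centring, filters on dim probe sets (detection on 3 or more arrays, or without the dimmest 30%), averaged probe sets, only probe sets with a single symbol, each array left out, only the groups compared, the robust fit, the methods' t-test, no fold threshold and a replicate block. The robust fit with each array left out, and the pathway genes without CCl4 replicate 3, were chosen after seeing the data. Promoter windows and gene numbers are from RefSeq (GRCr8). The table's own coordinates were not used.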

Additional observations from a re-analysis of the deposited data

How the results depend on the processing

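No conjugation gene passed limma in the 3 comparisons under quantile normalization, median centring, the filter on the dimmest 30%, averaged or single-symbol probe sets, only the groups compared, no fold threshold or any array left out, nor the methods' t-test after Benjamini-Hochberg adjustment. Exceptions were 1 gene, Gsta3, against vehicle for both CCl4 and CCl4+Rot livers when the test was kept to probe sets detected on 3 or more arrays and in the robust fit. No share of all genes is given under that detection filter, so its count cannot be read against the general rate. With each array left out, limma gave 0 and the robust fit 1 to 4 genes for CCl4 against vehicle, with 4 (Gsta3, Gstz1, Sult1c2a and Sult1c3) without CCl4 replicate 1 and 2 (Gsta3 and Ugt1a) without CCl4 replicate 3, beside 3.83% and 1.44% of all genes. For CCl4+Rot against vehicle it gave 1 or 2, with 2 (Gsta3 and Ugt2b10) without CCl4 replicate 2, beside 1.83% of all genes. The methods' t-test, unadjusted, gave 4, 1 and 4 genes for CCl4 against vehicle, CCl4+Rot against CCl4 and CCl4+Rot against vehicle. No share of all genes is given for that test, so these counts cannot be read against the general rate. Gsta3 kept a log2 difference of 3.68 between CCl4 and vehicle and 3.08 between CCl4+Rot and vehicle in the filter, the robust fit and the t-test, and ranged from 3.32 to 4.01 and from 2.76 to 3.45 with an array left out. With an array left out, the count of genes with no overlap ran from 12 to 17 for CCl4 against vehicle, from 4 to 10 for CCl4+Rot against CCl4 and from 10 to 17 for CCl4+Rot against vehicle, and for CCl4+Rot against CCl4 it was 2 after quantile normalization and 2 after median centring. The shares of all genes rose with an array left out as well, for CCl4 against vehicle from 12.4% higher and 8.53% lower to 25.3% and 13.8% without CCl4 replicate 1. Groups that are apart stay apart when an array is left out, so these counts and shares can then only stay or rise. The cause of the shifts after rescaling was not tested, and no share of all genes is given there. The replicate numbers of the labels did not pair the samples, with correlations of deviations of -0.09, -0.00466 and -0.01 for the pairs that share a number. With the replicate block, the Gsta3 differences were 3.69 (limma adjusted p = 0.158), -0.60 and 3.09 (limma adjusted p = 0.175), and the count of genes passing stayed at 0. Among the named genes, 120 of 1500 alternative values had the other sign, in 50 of 102 differences. Signal near background limits the dim members, and probes shared by related genes limit the paralogs.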
